A study of Mus musculus with 6 samples.

Results

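The genes described here were 40 cell cycle genes, taken by their gene symbols from the 32285 features of the count matrices: 17 that act in DNA replication and 23 that act in mitosis. The rule names genes and applies no measured threshold, each symbol matched 1 feature, and all 40 are annotated as protein-coding. The matrices hold unique molecular identifiers (UMIs, each counted as 1 captured RNA molecule) from droplet-based 3′ single-cell RNA sequencing of αβ T cells of the mouse kidney. All mice were wild-type male C57BL/6J animals of 7 to 8 weeks. The control group was labelled as normal, and in the IR group both renal pedicles were clamped for 30 min and then released (ischemia reperfusion), with serum creatinine measured at 24 h. Kidneys were digested with collagenase, mononuclear cells were enriched on Percoll, and live CD45+ TCR+ cells were sorted into CD4+, CD8+ and double-negative (DN, lacking both) T cells, with 1 library per subset and group. The number of mice behind a library is not given in the sources used here, and since each group was sequenced once, differences between libraries could not be tested against the spread between animals. The 95% intervals cover counting error only and not the spread between mice.

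A T cell at rest has left the cell cycle. When it is driven to divide, E2F transcription factors first switch on the enzymes and loading factors of DNA replication. Later, complexes with FOXM1 switch on the genes of chromosome segregation, so the replication and mitosis sets mark successive stages of the same division. Most T cells of an uninjured kidney are long-lived memory or innate-like cells, few of which are in cycle at any moment.

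The 2 sets also differ in the letters around their start sites. In RefSeq promoter windows of build GRCm38.p6, from 250 bases before to 50 after the start, 31 of the 40 members had an entry (Stmn1, Ccna2, Aurkb, Tpx2, Kif20a, Mcm4, Gins2, Hist1h1b and Hist1h3c had none). Of 13 replication genes, 8 held an E2F word (TTTCCCGC, TTTGGCGC, TTTCGCGC, TTTGCCGC or TTCCCGCC, searched on both strands), against 4.46% of all 27025 genes in the table and 8.40% of those at a mean of 5 CPM or more (UMIs of a gene per 1000000 retained UMIs of the library). Of 18 mitosis genes only Cdk1 did. The cell cycle homology region word (CHR, TTTGAA or TTCGAA) stood in 14 of 18 mitosis genes and in Mcm2 and Mcm7 of the 13 replication genes, against 21.7% of all genes, and all of these 16 windows also held CCAAT, a pair found in 8.61% of all genes. These are descriptions of letters and not of bound sites.

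The promoters of Mcm5 and Mcm6, which encode subunits of the replicative helicase, show the E2F arrangement, with E2F words in capitals (overlapping words on opposite strands run together). Mcm5 lies at chr8:75109259-75109558 on the plus strand and Mcm6 at chr1:128359656-128359955 on the minus strand, each printed 5′ to 3′ along its gene.
Mcm5: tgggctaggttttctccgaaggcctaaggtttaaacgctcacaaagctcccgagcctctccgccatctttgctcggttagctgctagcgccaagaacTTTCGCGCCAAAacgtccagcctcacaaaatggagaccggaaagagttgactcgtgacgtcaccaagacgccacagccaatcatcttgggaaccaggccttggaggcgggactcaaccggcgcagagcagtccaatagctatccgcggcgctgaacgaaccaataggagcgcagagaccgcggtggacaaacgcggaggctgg
Mcm6: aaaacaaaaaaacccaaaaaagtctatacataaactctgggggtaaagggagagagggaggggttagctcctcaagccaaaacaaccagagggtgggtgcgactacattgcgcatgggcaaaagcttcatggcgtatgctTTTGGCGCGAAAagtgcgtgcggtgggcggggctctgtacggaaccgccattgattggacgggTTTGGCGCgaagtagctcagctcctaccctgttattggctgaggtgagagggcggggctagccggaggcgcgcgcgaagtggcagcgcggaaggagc

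The promoters of Mki67, whose protein coats mitotic chromosomes, and Ccnb2, a mitotic cyclin, show CHR words beside CCAAT words, both in capitals on either strand. CCAAT alone was also in 10 of the 13 replication genes, Mcm5 and Mcm6 among them, and in 16 of the 18 mitosis genes, against 41.1% of all genes. Mki67 lies at chr7:135716330-135716629 and Ccnb2 at chr9:70421505-70421804, both on the minus strand, and each window held 2 CHR and 3 CCAAT words.
Mki67: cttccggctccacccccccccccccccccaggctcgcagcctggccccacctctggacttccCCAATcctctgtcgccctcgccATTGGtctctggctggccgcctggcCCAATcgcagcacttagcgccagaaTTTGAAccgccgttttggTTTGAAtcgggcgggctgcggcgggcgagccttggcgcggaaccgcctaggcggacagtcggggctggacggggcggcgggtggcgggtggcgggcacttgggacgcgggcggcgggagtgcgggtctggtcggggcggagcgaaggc
Ccnb2: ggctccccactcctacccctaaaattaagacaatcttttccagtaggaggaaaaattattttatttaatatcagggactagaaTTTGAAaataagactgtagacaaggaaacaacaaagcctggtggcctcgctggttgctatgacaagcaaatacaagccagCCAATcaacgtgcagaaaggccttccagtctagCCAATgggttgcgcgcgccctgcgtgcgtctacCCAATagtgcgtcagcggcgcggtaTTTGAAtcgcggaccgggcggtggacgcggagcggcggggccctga

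The 6 libraries held 54039 barcodes, of which 47713 were analysed, 3967 to 10061 per library. The sort was visible in the RNA: Cd4 was at 210.5 and 146 CPM in the CD4+ libraries and below 0.5 CPM elsewhere, and Cd8a was at 867 and 399.6 CPM in the CD8+ libraries and at 0.247 CPM or less elsewhere. Depth differed between the groups, with a median of 4967 to 6567 retained UMIs per cell in the control libraries and 938 to 1429 in the IR libraries, and the control matrices carry Cell Ranger version 5.0.1 in their headers and the IR matrices version 6.0.1, so that condition and version cannot be told apart. Of the cells analysed, 0.567 to 0.933% carried a barcode also found in another library of the same condition.

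In whole libraries the sum of the mitosis genes was lower in the IR group in every subset, and the sum of the replication genes differed by less. The summed level of the 23 mitosis genes was 286 CPM in control CD4+, 377 in control CD8+ and 180.2 in control DN T cells, against 192, 200.5 and 76.1 CPM in the IR libraries. That is 1.49-fold lower in CD4+ (log2 ratio IR over control -0.57, 95% interval -0.63 to -0.52), 1.88-fold lower in CD8+ (-0.91, -0.99 to -0.83) and 2.37-fold lower in DN T cells (-1.24, -1.41 to -1.08). With barcodes lacking T cell receptor and Cd3 UMIs kept, these log2 ratios were -0.54, -0.82 and -0.78. With the top 5% of barcodes by UMIs kept they were -0.93, -0.88 and -1.81. The 17 replication genes summed to 529.6, 616 and 481 CPM in the control and 482, 486 and 451 CPM in the IR libraries of CD4+, CD8+ and DN T cells, log2 ratios of -0.14, -0.34 and -0.09, which became -0.54, -0.52 and -0.48 with the top 5% of barcodes kept and -0.49, -0.76 and -0.27 with the removed features kept. Pcna made up 169 to 242 CPM of these sums. In a pooled level, fewer cells in cycle and less RNA per such cell cannot be told apart.

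**Figure D1:**
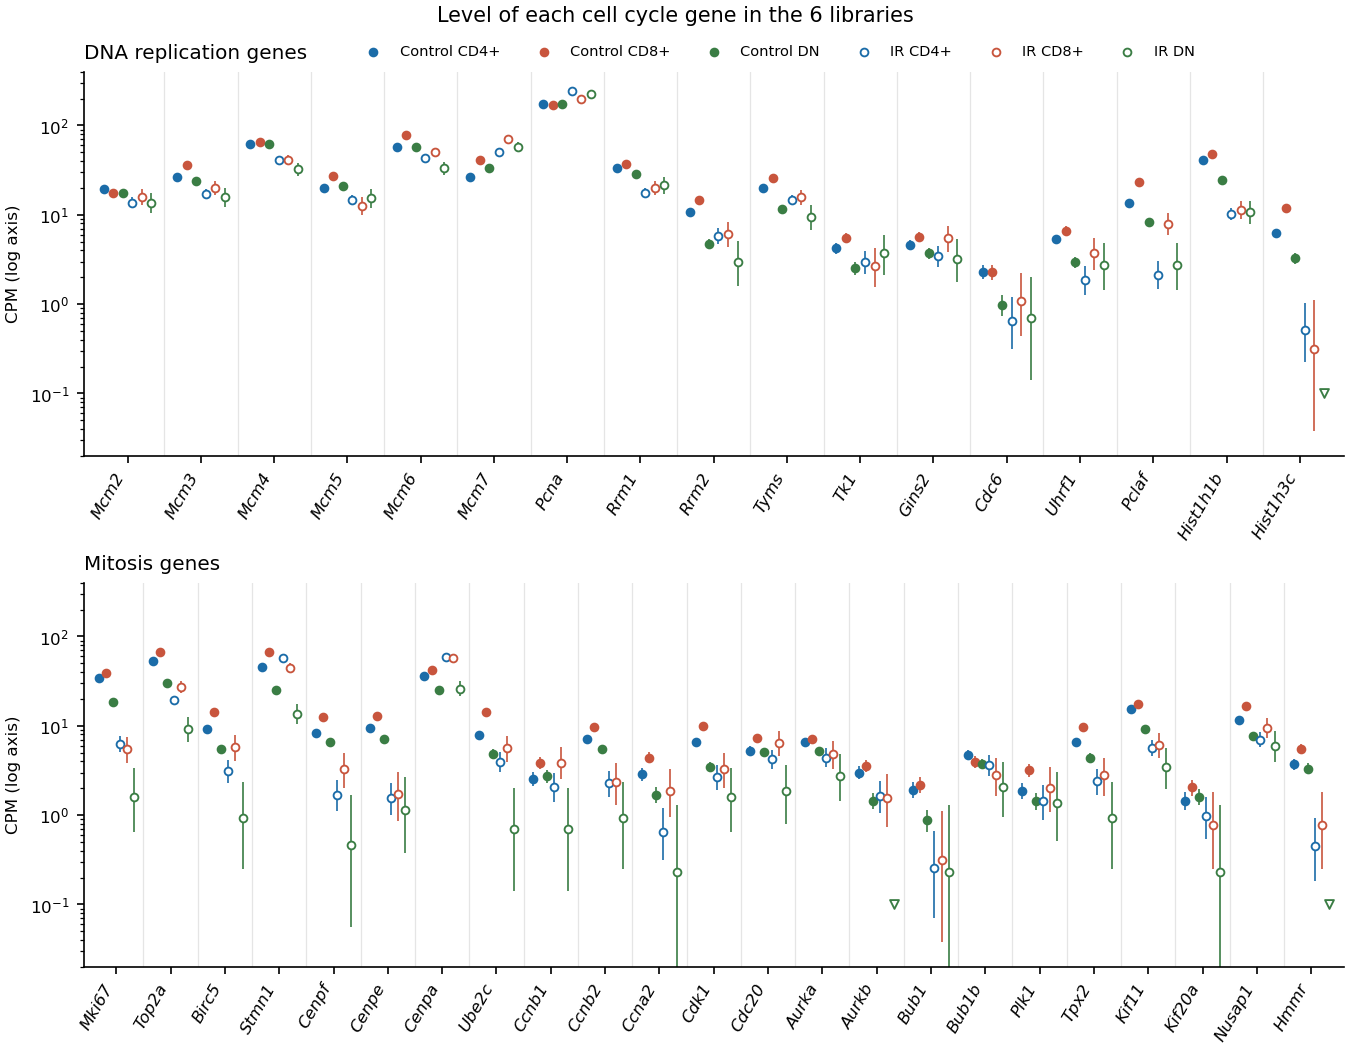
Level of each of the 40 members in each library, in CPM (log axis), replication genes above and mitosis genes below. Filled symbols are control and open symbols IR libraries, bars are exact 95% Poisson intervals, and triangles near the lower edge mark 0 UMIs. For Mki67 and Top2a all 3 IR libraries lie below all 3 control libraries, for Mcm7 all 3 lie above.

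Among the genes that shape mitotic chromosomes, Mki67 was at 34.2, 39.5 and 18.5 CPM in CD4+, CD8+ and DN T cells of the control group, and at 6.22, 5.44 and 1.62 CPM in the IR libraries. No IR library reached a control library, and the log2 ratios were -2.46 (interval -2.77 to -2.16), -2.86 (-3.39 to -2.38) and -3.52 (-4.83 to -2.47). Top2a, the topoisomerase that untangles sister DNA, was at 53.2, 67.1 and 30.2 CPM in control and 19.5, 27.3 and 9.23 CPM in IR libraries, and the highest IR value lay below the lowest control value, although the intervals of these 2 overlapped.

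The genes of mitotic entry were also lower as a sum. Cdk1, the mitotic kinase, and its cyclins Ccna2, Ccnb1 and Ccnb2 together made 19.1, 27.8 and 13.4 CPM in control and 7.65, 11.3 and 3.46 CPM in IR libraries, log2 ratios of -1.32, -1.29 and -1.95, the last from 15 UMIs. Ccnb1 in CD8+ T cells was at 3.82 CPM in control and 3.88 CPM in IR (log2 0.02, interval -0.64 to 0.63), but its ratio was -0.70 with the top 5% of barcodes kept and -0.40 with the removed features kept. Cdc20 and Ube2c, which drive the anaphase-promoting complex, summed to 13.1, 21.6 and 9.95 CPM in control and 8.16, 11.96 and 2.54 CPM in IR libraries.

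The mitotic kinase genes were lower as a sum. Aurka and Plk1 (spindle poles), Aurkb (chromosomal passenger complex), and Bub1 and Bub1b (spindle checkpoint) summed to 18.1, 19.998 and 12.7 CPM in control and 11.3, 11.5 and 6.46 CPM in IR libraries, log2 ratios of -0.67, -0.80 and -0.97. Of these, Bub1 had the lowest ratio in CD4+ T cells (-2.87, from 96 and 4 UMIs) and Bub1b and Plk1 the highest (both -0.38), which became -1.01 and -0.81 with the top 5% of barcodes kept. After centring by intronic length, which subtracts the median ratio of features with introns of like length, Bub1b was at 0.08 in CD4+ and 0.02 in CD8+ T cells. Aurkb had no UMI in IR DN T cells, at least 2.09-fold lower than its 1.45 CPM in control DN T cells.

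The centromere and spindle genes divided by member. Cenpe, a kinetochore motor, was at 9.37, 12.8 and 7.06 CPM in control and 1.56, 1.71 and 1.15 CPM in IR libraries, and Cenpf, a kinetochore protein, at 8.30, 12.6 and 6.66 against 1.68, 3.26 and 0.461 CPM. Cenpa, the histone that marks the centromere, was higher in the IR library of CD4+ and CD8+ T cells, at 36.4, 42.6 and 25.2 CPM in control and 58.6, 57.6 and 26.1 CPM in IR libraries, log2 ratios of 0.69, 0.44 and 0.05 (0.33, 0.02 and -0.13 with mitochondrial, ribosomal and Malat1 counts kept in the total). The DN value, with an interval of -0.24 to 0.32, was also below 0 under TMM scaling (-0.02) and with the top 5% of barcodes kept (-0.30). Birc5, a passenger protein, was lower in each pair, with ratios of -1.58, -1.30 and -2.58, although those of CD4+ and CD8+ T cells were -0.74 and -0.37 with the top 5% of barcodes kept.

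Stmn1, which destabilises microtubules, had a different direction in different subsets. It was at 46.0 CPM in control and 57.5 CPM in IR CD4+ T cells, at 67.4 and 44.7 CPM in CD8+, and at 24.9 and 13.6 CPM in DN T cells. The log2 ratios were 0.32, -0.59 and -0.87, and the CD4+ value turned to -0.37 when the barcodes with the most UMIs were kept and to -0.03 with the removed features kept, and the DN value to 0.55 when barcodes without a T cell receptor or Cd3 UMI were kept. With each cell thinned to 500 UMIs, the ratios were 0.94, -1.13 and -0.70. The motors and bundlers Kif11, Kif20a, Tpx2 and Nusap1 had ratios below 0 in all 3 pairs, although the intervals of Kif20a in CD4+ and Nusap1 in DN T cells spanned 0, and Nusap1 in DN T cells was at 0.03 after centring by intronic length. Kif11 had log2 ratios of -1.43, -1.53 and -1.41. Hmmr, a spindle-associated protein, was at 3.72, 5.47 and 3.31 CPM in control libraries and at 0.454, 0.776 and 0 CPM in IR libraries, at least 4.78-fold lower in DN T cells.

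The replication set was not uniform. The helicase subunits Mcm2, Mcm3, Mcm4, Mcm5 and Mcm6 had lower CPM in the IR library in all 3 subsets, although for Mcm2 the CD8+ and DN intervals spanned 0 and Mcm5 in CD4+ T cells went from -0.43 to 0.12 after thinning (log2 ratios from -1.11 for Mcm5 in CD8+ to -0.15 for Mcm2 in CD8+ T cells), whereas the remaining subunit Mcm7 was higher. Mcm7 was at 26.5, 41.4 and 33.3 CPM in control and at 50.3, 71.0 and 57.7 CPM in IR libraries, with log2 ratios of 0.92 (interval 0.79 to 1.05), 0.78 (0.63 to 0.93) and 0.79 (0.60 to 0.98), and all 3 stayed above 0 under every alternative tried for single members. Pcna, the sliding clamp, was at 176, 169 and 174 CPM in control and 242, 200.5 and 225 CPM in IR libraries (0.46, 0.25 and 0.37), but the CD8+ value was -0.17 with the removed features kept in the total, and centring by intronic length left 0.04, 0.11 and 0.09.

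The genes that feed and package new DNA were lower as sums. The 2 subunits of ribonucleotide reductase, Rrm1 and Rrm2, with thymidylate synthase Tyms and thymidine kinase Tk1, summed to 68.6, 83.0 and 47.5 CPM in control and 40.9, 44.3 and 37.6 CPM in IR libraries, although Tk1 alone had 2.52 CPM in control and 3.69 CPM in IR DN T cells (log2 0.55, interval -0.29 to 1.30, but -0.80 with the top 5% of barcodes kept and -0.84 with no cell filters). Histone genes Hist1h1b (linker histone H1) and Hist1h3c (histone H3) summed to 47.5, 59.4 and 27.9 CPM in control and 10.7, 11.6 and 10.8 CPM in IR libraries, and Hist1h3c had no UMI in IR DN T cells, at least 4.70-fold lower than in control DN T cells. Histone genes have near-identical copies and mostly lack poly(A) tails, so a value assigned to 1 copy is uncertain. Pclaf, which binds Pcna at the fork, was at 13.7, 23.6 and 8.36 CPM in control and 2.14, 7.92 and 2.77 CPM in IR libraries, and its ratios in CD4+ and CD8+ T cells went from -2.68 and -1.57 to -1.78 and -0.55 with the top 5% of barcodes kept.

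Cdc6, Gins2 and Uhrf1 had ratios below 0 in every pair, from few UMIs. Cdc6, the loader of the helicase, had 117, 104 and 59 UMIs in control and 10, 7 and 3 in IR libraries, and Gins2, a helicase cofactor, had log2 ratios of -0.42, -0.07 and -0.20, the CD8+ value turning to 0.08 after centring by intronic length. Uhrf1, which carries DNA methylation across the fork, had ratios of -1.50, -0.83 and -0.08, the last with an interval of -1.06 to 0.76 and at 0.13 after centring.

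Of the 40 members, 24 (12 of each set) had a mean of 5 CPM or more over the 6 libraries, the level at which 2-fold differences were counted. In CD4+ T cells 8 of 24 were at least 2-fold lower in the IR library, 2 replication and 6 mitosis genes, against 14.5% of 10101 features at that level. In CD8+ T cells 11 of 24 were (4 and 7; background 17.5%) and in DN T cells 10 of 24 (2 and 8; background 11.4%). None of the 24 was 2-fold higher in any pair, where the background was 8.74, 7.68 and 7.81%, although Mcm7 passed 2-fold in CD4+ T cells after thinning to 500 UMIs per cell (log2 1.12). Over all 23 mitosis genes the median log2 ratio was -1.31, -1.30 and -1.92, and over the 17 replication genes -0.59, -0.85 and -0.43, beside -0.24, -0.37 and -0.26 for all features at the minimum, and 36 of 40 members were below 0 in each subset, as were 61.5, 68.7 and 63.7% of all features.

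**Figure D2:**
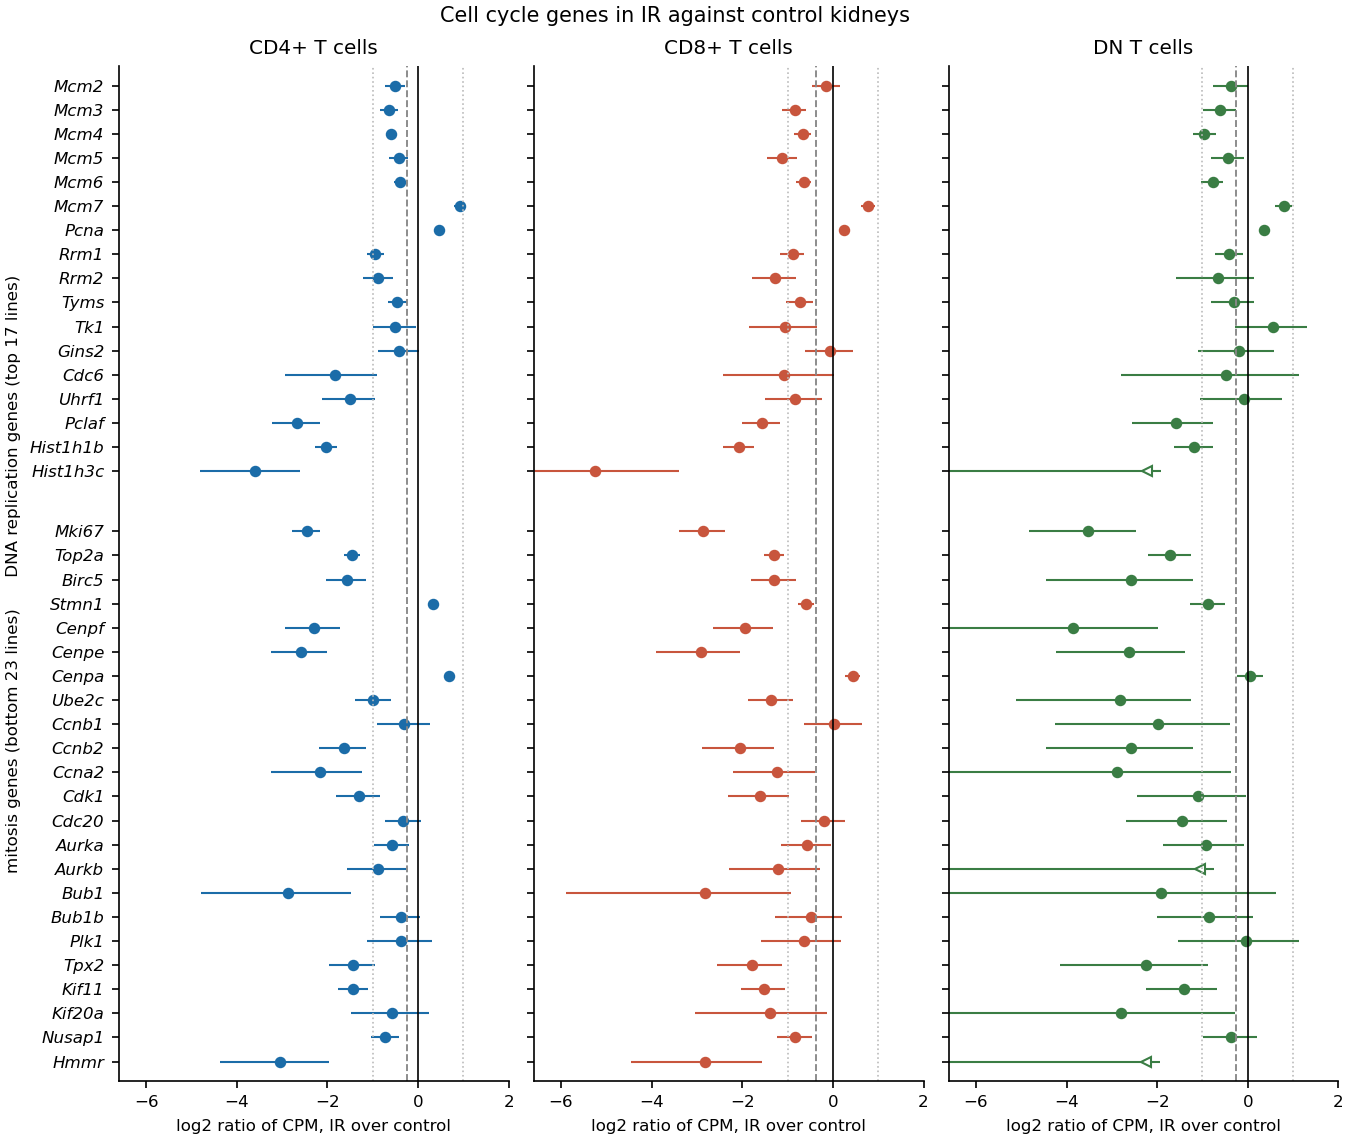
Log2 ratio of CPM, IR over control, for each member in CD4+, CD8+ and DN T cells, with exact 95% intervals for counting error (lines reaching the left edge continue past it). Open triangles are genes with 0 UMIs in the IR library, drawn at the upper bound from a floor of 3 UMIs, the dashed line is the median of all features and dotted lines mark 2-fold. Most mitosis genes lie left of the dashed line, and Mcm7 lies right of it in all 3 panels.

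The counts were also taken after centring by intronic length and with the top 5% of barcodes kept. The ratio of all features fell with intronic length, from a median of 0.35 in the bin of shortest introns to -0.95 in that of the longest in CD4+ (0.09 to -0.80 in CD8+, 0.28 to -0.64 in DN), and after centring within 20 bins of intronic length 9 of 24 members were 2-fold lower in each subset, against 5.28, 5.93 and 4.40% of all features. Keeping the top 5% of barcodes by UMIs brought 36 members to the minimum, of which 20, 14 and 24 were 2-fold lower, against 13.7, 16.9 and 10.7% of all features. Single ratios moved by more than 1.5-fold with these barcodes kept in either direction, for example from -2.05 to -0.86 for Ccnb2 in CD8+, from -3.04 to -2.03 for Hmmr in CD4+ and from -5.25 to -3.18 for Hist1h3c in CD8+ T cells. In DN T cells those of Cdk1 went from -1.10 to -2.29, Cdc6 from -0.49 to -2.11 and Hist1h1b from -1.18 to -2.36.

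The subsets also differed within each group. Among control libraries, CD8+ T cells had the highest summed mitosis level and DN T cells the lowest, and 39 of 40 members were lower in DN than in CD8+ T cells, all but Pcna, as were 53.1% of all features at the minimum. Of the 24 members at the minimum, 9 were at least 2-fold lower in control DN than in control CD8+ T cells (3 replication, 6 mitosis; background 3.27%) and none was higher (background 3.90%). Against control CD4+ T cells, 36 of 40 members were higher in CD8+ T cells (54.7% of all features) but none of the 24 by 2-fold (background 1.98% higher and 3.02% lower). That count was 1 of 36 with the top 5% of barcodes kept and 5 of 23 after thinning (1.86 and 2.28% of features higher). In control DN T cells 34 of 40 were lower than in CD4+ T cells (49.5% of all features), and of the 24 members at the minimum only Rrm2 was 2-fold lower (4.75 against 10.7 CPM; background 1.65% lower and 1.59% higher), a count that was 0 of 36 with the top 5% of barcodes kept and 6 of 23 after thinning.

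In the IR group the order of the CD4+ and CD8+ libraries was not resolved for mitosis among the analysed cells, and DN T cells were lower. The summed mitosis level of IR CD8+ over IR CD4+ T cells had a log2 ratio of 0.06 (interval -0.03 to 0.16), beside 0.40 (0.37 to 0.43) in the control group, but 0.53 (0.47 to 0.59) with the top 5% of barcodes kept, 0.10 (0.01 to 0.20) under TMM scaling, 0.12 (0.03 to 0.21) with barcodes lacking T cell receptor and Cd3 UMIs kept, and -0.11 (-0.20 to -0.01) with the removed features kept. IR DN T cells were lower than IR CD4+ T cells by 2-fold in 8 of 24 members, all mitosis genes (background 2.72% lower and 4.10% higher), and lower than IR CD8+ T cells in 10 of 24 (8 mitosis, 2 replication; background 4.16% lower and 7.63% higher). The median log2 ratio of IR DN over IR CD4+ T cells was -1.21 for the mitosis and 0.03 for the replication genes, and over IR CD8+ T cells -1.45 and -0.35. With the mitochondrial, ribosomal and Malat1 counts kept, 2 and 4 of 18 members were 2-fold lower against CD4+ and CD8+ T cells (1.79 and 2.13% of all features), and with the top 5% of barcodes kept 16 and 24 of 36 (2.87 and 4.21%). Of the 24 members, Pclaf alone was 2-fold higher in IR CD8+ than in IR CD4+ T cells (7.92 against 2.14 CPM; background 3.48% higher and 4.14% lower).

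Counted cell by cell at equal depth, few cells held several UMIs of a set. Because a deep cell shows more UMIs of any gene, each cell was thinned to 500 retained UMIs before the UMIs of each set were summed, and all analysed cells reached 500. A cell with at least 3 mitosis UMIs was found 71 times in 9202 control CD4+ T cells (0.772%, exact binomial interval 0.603 to 0.972%), 155 times in 9291 control CD8+ (1.67%, 1.42 to 1.95%) and 47 times in 8890 control DN T cells (0.529%, 0.389 to 0.702%). In the IR group it was found 12 times in 10061 CD4+ (0.119%, 0.0616 to 0.208%), 19 times in 6302 CD8+ (0.301%, 0.182 to 0.470%) and 1 time in 3967 DN T cells (0.0252%, 0.000638 to 0.140%). The interval of each IR library lay below that of its control library. Another 5 such IR DN cells were among the 174 barcodes left out for having no T cell receptor or Cd3 UMI, and with those kept the IR DN share was 0.145% (0.0532 to 0.315%).

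The replication set gave the same order among control libraries. At least 3 replication UMIs were found in 0.815, 1.53 and 0.416% of control CD4+, CD8+ and DN T cells (75, 142 and 37 cells) and in 0.288, 0.317 and 0.176% of IR cells (29, 20 and 7 cells). For DN T cells the intervals overlapped, 0.293 to 0.573% in control and 0.0710 to 0.363% in IR. Cells with at least 3 UMIs of both sets numbered 29, 56 and 13 in control libraries and 1, 5 and 0 in IR libraries. The most mitosis UMIs found in 1 thinned cell were 13, 17 and 10 in control and 8, 7 and 4 in IR libraries.

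**Figure D3:**
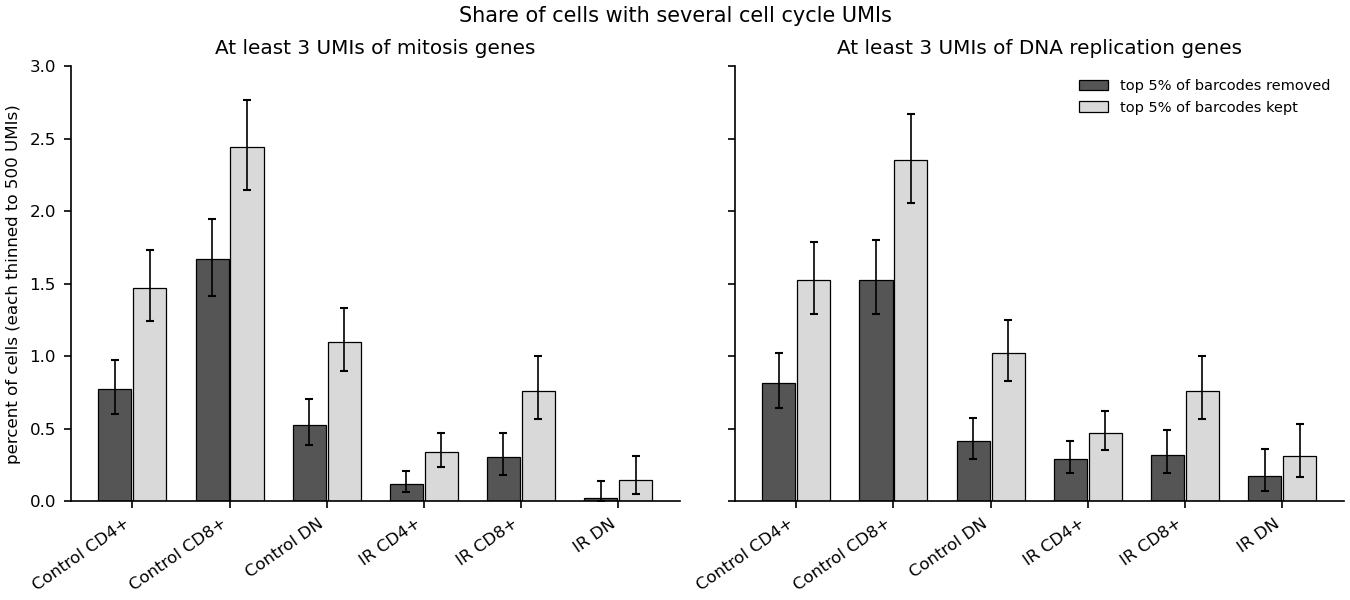
Percent of cells with at least 3 UMIs of the mitosis genes (left) and the DNA replication genes (right) after thinning every cell to 500 UMIs, with exact 95% binomial intervals, for the 6 libraries with and without the top 5% of barcodes by UMIs. Control CD8+ T cells have the highest share in both panels (1.67 and 1.53% without the top 5%), and each IR library lies below its control library.

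Without thinning the shares were 10.2, 12.5 and 7.20% in control and 1.13, 0.666 and 0.101% in IR libraries for mitosis, and the rank of IR CD4+ and CD8+ T cells was then the reverse of that at equal depth. What free RNA in droplets adds to these shares was not tested.

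The barcodes with the most UMIs, which the study removed as possible doublets, held much of the cycle signal. Among removed barcodes of control libraries the mitosis genes were at 2558, 3091 and 2030 CPM, and among those of IR libraries at 1128, 1891 and 389 CPM. In control libraries these barcodes held 21711, 29794 and 18375 mitosis UMIs, more than the 14428, 17169 and 10955 of all analysed cells. In IR libraries they held 2780, 2233 and 272, beside 2962, 1291 and 330 in all analysed cells, so more in CD8+ T cells only. Of all cells with at least 3 mitosis UMIs at 500, 72 of 143 in control CD4+, 85 of 240 in control CD8+ and 56 of 103 in control DN T cells were in the removed 5%, as were 24 of 36, 32 of 51 and 5 of 6 in the IR libraries. With these barcodes kept the shares were 1.47, 2.44 and 1.10% in control and 0.339, 0.763 and 0.143% in IR libraries. Whether these barcodes were doublets was not tested.

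Below that limit, such cells were not deeper in every library. The class of cells with at least 3 UMIs of either set numbered 117, 241 and 71 in control and 40, 34 and 8 in IR libraries. It is a range cut from a count and not a cell type, since 67, 172 and 38 control cells had 2 mitosis UMIs. Any of those with at least 3 replication UMIs are in the class. Its median depth was 7506 UMIs beside 7037 in the rest of control CD4+ and 9670 beside 8365 in control DN T cells, but 2222 beside 6689.5 in control CD8+ T cells. Barcodes shared with another library of the same condition made up 7 of 117, 7 of 241 and 10 of 71 control cells and 1 of 40, 6 of 34 and 1 of 8 IR cells. Without these shared barcodes the mitosis shares were 0.733, 1.61 and 0.442% in control and 0.120, 0.224 and 0.0254% in IR libraries.

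How far a member belonged to these few cells differed widely between genes. With a gene's own UMIs left out of the choice of cells, the class was 0.686 to 2.59% of the cells of a control library, and it held 83.1% of Hmmr UMIs in control DN, 79.5% in control CD8+ and 69.7% in control CD4+ T cells. For Ccna2 it held 75.0 to 78.1%, for Bub1 69.8 to 75.0%, for Cenpf 68.4 to 70.4%, for Hist1h3c 62.7 to 73.4% and for Birc5 62.0 to 67.8%. Hmmr was at 1.15, 1.14 and 0.564 CPM outside the class in CD4+, CD8+ and DN T cells of the control group and at 168, 202 and 303 CPM within it.

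At the other end stood genes with most of their UMIs outside the class. The class held 1.42 to 4.40% of Pcna, 2.02 to 4.96% of Mcm4, 2.44 to 5.51% of Mcm6 and 3.80 to 8.86% of Mcm7 UMIs, and in the remaining cells Pcna was still at 170.5, 164 and 173 CPM. Mki67 lay in between, with 45.7, 51.0 and 46.0% of its UMIs in the class, as did Stmn1 with 45.7, 46.0 and 33.7%. Cenpa had only 10.8, 16.8 and 14.1% there, and Aurka 12.3, 12.3 and 11.4%.

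**Figure D4:**
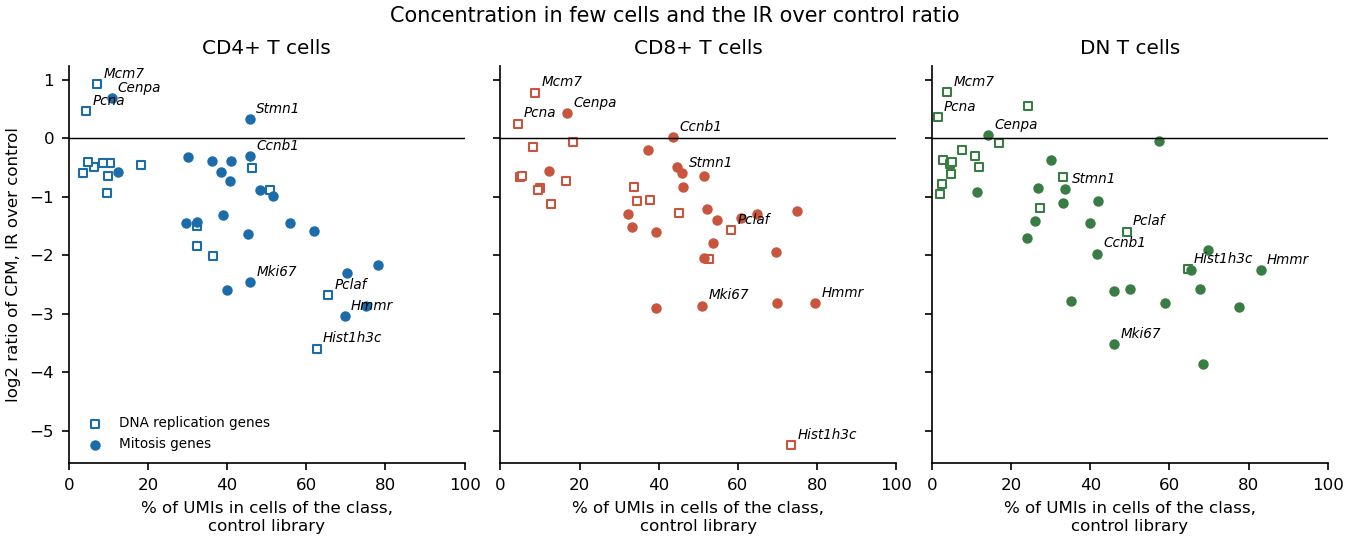
Each point is a member: percent of its UMIs found in cells of the class in the control library (x) against its log2 ratio of CPM, IR over control (y), for CD4+, CD8+ and DN T cells. Both axes share the control library, and the 3 members without a UMI in IR DN T cells are drawn at the upper bound from a floor of 3 UMIs. Hmmr, Cenpf and Hist1h3c, with over 60% of their UMIs in the class, have ratios of -1.95 or below, and Mcm7, with under 9% there, has ratios above 0, while Ccna2 (75.0%) and Birc5 (64.8%) have -1.24 and -1.30 in CD8+ T cells.

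Across the 40 members, the share of UMIs in the class and the log2 ratio IR over control had a Pearson r of -0.69, -0.65 and -0.75 and a Spearman rho of -0.62, -0.67 and -0.74 in CD4+, CD8+ and DN T cells. This is a description across genes, which are not independent, both measures use the same control library, and the DN values include 3 members at their bound.

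In the control libraries the cells of the class also held more of several cell cycle genes that the choice of cells did not use. Of transcription factors of the cycle, E2f1 was 2.61, 3.01 and 2.72 higher on the log2 scale in the class than in the rest of control CD4+, CD8+ and DN T cells, E2f2 3.38, 3.14 and 4.62, Foxm1 5.04, 2.97 and 5.02, and Mybl2 4.87, 3.43 and 4.17. Ccne1, the G1/S cyclin, was higher by 3.48, 2.41 and 3.02. A list of 29 further mitosis genes summed to 13176, 14956 and 13800 CPM in the class and 1968, 2586 and 1939 CPM in the rest. In the 8 class cells of the IR DN library it was not separated from the rest (3382 and 2519 CPM, log2 0.43, interval -0.15 to 0.95), but with the top 5% of barcodes kept, in 15 class cells, it was at 11219.5 and 2589.9 CPM (2.12, 1.96 to 2.27). Within it Pttg1, the securin gene, was not higher (-0.42, -0.27 and -0.38).

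The D-type cyclins, which act at the G1 restriction point, went the other way. Ccnd3 was lower in the class by log2 ratios of -0.77, -0.77 and -1.03 and Ccnd2 by -0.65, -0.43 and -0.85. The quiescence factor Klf2 was at 205, 361 and 142 CPM in the class and 429, 751 and 279.6 CPM in the rest, and the antiproliferative gene Btg1 at 898, 921 and 1227 against 1591, 1849 and 2121 CPM. Il7r, the receptor of the survival cytokine IL-7, was at 107, 95.5 and 76.4 CPM in the class and 268, 381 and 147 CPM in the rest.

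In CD8+ T cells some T cell genes differed between the class and the rest, and differences between subsets were not tested. In control CD8+ T cells Gzma, a cytotoxic granule protease, was at 730.3 CPM in the class and 175 CPM in the rest (log2 2.06, interval 1.95 to 2.17), and Gzmb at 271 and 134 CPM. The 4 NK cell markers summed to 299.6 and 195 CPM there, of which Gzmb is 1, while Eomes was at 28.4 and 60.9 CPM and Ncr1 and Klra8 had no UMI in the class. IR CD8+ T cells, with 34 cells and 122 Gzma UMIs in the class, had 2534 and 565 CPM. Prf1, perforin, was not higher, at 63.0 and 131 CPM in control CD8+ T cells, and Ccr7, a homing receptor of naive and recirculating T cells, was lower there (log2 ratio -1.96).

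In control DN T cells the class had more Ctla4 and Pdcd1, which encode inhibitory receptors, and less Klrb1c and Kcnq5. Of its 71 cells, 10 carried a barcode shared with another control library, against 0.686% of all analysed control DN T cells. The levels in the class were not recomputed without shared barcodes, so what part such cells have in them was not tested. Ctla4 was at 155 CPM in the class and 39.3 CPM in the rest (log2 1.97, interval 1.65 to 2.28) and Pdcd1 at 55.1 and 24.5 CPM. Of other inhibitory receptor genes, Lag3 was at 12.4 and 3.52 CPM from 7 UMIs in the class, and Tigit at 19.5 and 9.10 CPM from 11 UMIs (log2 1.10, but -0.30 with the top 5% of barcodes kept). Klrb1c, which encodes NK1.1, was at 85.2 and 210.2 CPM, and Kcnq5, a potassium channel gene that is high in this library, at 661 and 2386 CPM (log2 -1.85). In control CD8+ T cells Ctla4 was lower instead, at 36.6 and 104.5 CPM. Among markers of other cells, Pecam1 was at 94.1 CPM in the class and 44.8 CPM in the rest of control DN T cells, while the other 3 endothelial markers, Kdr, Egfl7 and Emcn, had no UMI in that class, and all 4 summed to 57.9 CPM in the class and 102 CPM in the rest of control CD8+ T cells. What part such cells have in these values was not tested. The 8 myeloid markers summed to 17.9, 13.2 and 5.33 CPM in the class and 18.6, 10.9 and 5.18 CPM in the rest, with Adgre1 and Csf1r at 0 in the class of all 3 control libraries.

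**Figure D5:**
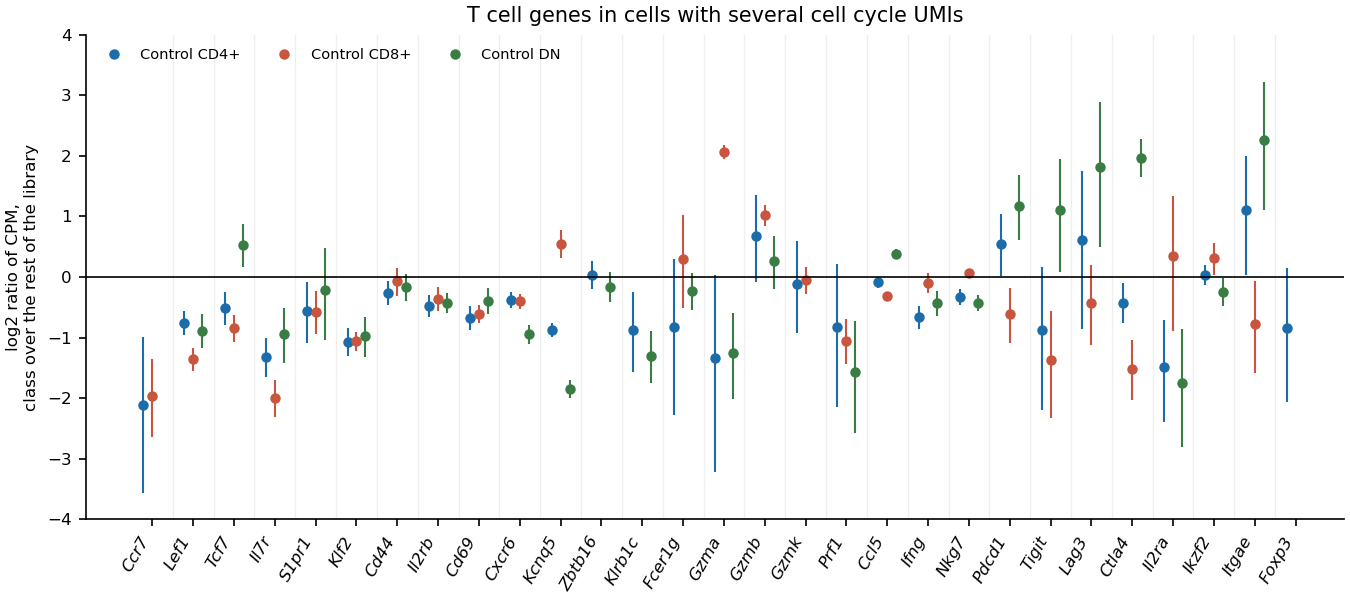
Log2 ratio of CPM of T cell genes in the class over the rest of the same control library, with exact 95% intervals for counting error, for CD4+, CD8+ and DN T cells. Genes with under 4 UMIs in the class are left out. Gzma lies above 0 in CD8+ T cells (2.06), Ctla4 in DN T cells (1.97), and Il7r and Klf2 below 0 in all 3 libraries.

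The genes most like the members were those that reached 50 CPM in the class of all 3 control libraries, ranked by the smallest fold of class over rest. They were Pimreg (405-, 172- and 1926-fold), Neil3, Esco2, Sdk1, Hist1h2ab, Parpbp, Ckap2l, Cdkn3, Depdc1a and Shcbp1, with smallest folds from 172 down to 39.1. Neil3 acts in repair of DNA crosslinks at the fork and Esco2 joins sister chromatids. Sdk1, a cell adhesion gene, was seen in only 21 of 117, 15 of 241 and 7 of 71 class cells, and Hist1h2ab shares near-identical copies. Pimreg was seen in 21, 37 and 24 of these class cells, and its 1926-fold rests on 0.0498 CPM in the rest of control DN T cells.

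Outside the members, brakes of the cycle went in both directions in IR over control. Of 13 brakes, 4 were at least 2-fold higher and 1 lower in CD4+, 4 and 3 in CD8+, and 3 and 1 in DN T cells, beside the background of 8.74, 7.68 and 7.81% higher and 14.5, 17.5 and 11.4% lower. Cdkn1a, the inhibitor p21, was at 9.76, 5.77 and 8.06 CPM in control and 60.001, 35.3 and 69.5 CPM in IR libraries. Btg1 was at 1580, 1829 and 2113 against 6396, 6757 and 7234 CPM, and Klf2 at 426, 742 and 278 against 2083, 3647 and 824 CPM. The retinoblastoma gene Rb1 was lower, with log2 ratios of -1.25, -1.27 and -1.14. Rbl1, Rbl2, Btg2 and Foxo1 were also below 0 in every subset. Over the 13 brakes the median log2 ratio was 0.20, -0.03 and 0.21, with 5, 7 and 5 below 0. The ratios of these genes were not centred by intronic length, and condition cannot be told apart from Cell Ranger version.

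The other pathway lists were mixed and are read against the same background. Of 14 drivers of G1, 11 at the minimum, 1, 1 and 3 were 2-fold lower in CD4+, CD8+ and DN T cells and 0, 1 and 0 higher. E2f3 was lower in all 3 subsets (log2 -1.74, -1.08 and -1.24), and Myc was at 38.3 CPM in control and 102 CPM in IR CD8+ T cells. Of 17 further replication genes, 14 at the minimum, 3, 4 and 3 were 2-fold lower and none higher. Of 29 further mitosis genes, 21 at the minimum, 6, 6 and 5 were lower and 2, 1 and 1 higher. Cks2, a small partner of Cdk1, was among those higher in every subset (56.3, 59.2 and 44.3 CPM in control, 177, 243 and 161 CPM in IR libraries).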

How the data were processed

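Per the file headers, the matrices hold raw UMI counts per gene and barcode that the authors made with Cell Ranger (version 5.0.1 for the control and 6.0.1 for the IR libraries) against mm10. The study's methods name version 6.0.1. Following its filters, barcodes with at least 500 features and at most 20% mitochondrial counts were kept, the top 5% by UMIs were removed in place of a doublet caller, and 104 mitochondrial, ribosomal and Malat1 features were left out. Also left out were 564 barcodes without a UMI of Cd3d, Cd3e, Cd3g, Trac, Trbc1 or Trbc2. Between 4333896 and 60798297 retained UMIs per library remained.

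Counts were summed per library and scaled to CPM over the retained features. Levels have exact Poisson, shares Clopper-Pearson and ratios exact conditional 95% intervals. No test was run, since each group has 1 library. Ratios were counted past 2-fold at a mean of 5 CPM or more, and libraries with no UMI of a gene were given 3 as an upper limit. Cells were thinned once to 500 UMIs. The alternatives were TMM scaling (edgeR 4.0.16), other filters, thinning and thresholds, centring by intronic length (GENCODE M21, 99.8% of features matched) and leaving out shared barcodes. Promoter sequences are from RefSeq. Scripts ran in Python 3.11.15 with numpy 2.4.6, scipy 1.17.1 and pandas 2.3.3, and in R 4.3.3, and were checked on simulated data.

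All 40 members were named. From the pathway lists, genes with a mean of 20 CPM or more could be named, and E2f1, E2f2, Foxm1, Mybl2, Ccne1 and markers of other cells were chosen after their values were seen. Genes most like the members were the 10 outside all lists with the highest smallest fold of class over rest in the control libraries, at 50 CPM or more in each class. The members and lists were chosen with earlier results of these data known. One gene of the T cell list, and the group of cells chosen with it, are not reported here.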

Additional observations from a re-analysis of the deposited data

Results flagged for a closer look

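Stmn1 was flagged because its direction differed between subsets: the log2 ratio of IR over control was 0.32 in CD4+ T cells, -0.59 in CD8+ and -0.87 in DN T cells, and the difference between subsets was not tested. The CD4+ value was -0.37 with the top 5% of barcodes kept and -0.03 with the removed features kept, where all 3 subsets were below 0. After thinning the CD4+ value was 0.94. The 130 barcodes of the IR CD8+ library left out for having no T cell receptor or Cd3 UMI were flagged because the mitosis genes summed to 838 CPM there (interval 693 to 1004), against 239 CPM (115 to 440) in the 22 such barcodes of the control CD8+ library. In the control DN library the 24 such barcodes had 1920 CPM from 52 UMIs.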

How the results depend on the processing

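The summed mitosis and replication levels stayed lower in the IR library of each subset under every alternative run on sums, which leaves out centring by intronic length (medians of members only: mitosis -1.09, -1.20 and -1.59, replication -0.61, -0.57 and -0.36). In the order CD4+, CD8+, DN, the log2 ratios that moved by more than counting error were as follows, and the causes were not tested unless the setting itself gives them. With mitochondrial, ribosomal and Malat1 counts kept, mitosis was at -0.93, -1.33 and -1.42 and replication at -0.49, -0.76 and -0.27. With the top 5% of barcodes kept, mitosis was at -0.93 in CD4+ and -1.81 in DN T cells and replication at -0.54, -0.52 and -0.48, and with no cell filters mitosis was at -0.94 and -1.82 and replication at -0.54, -0.55 and -0.48. With barcodes lacking T cell receptor and Cd3 UMIs kept, mitosis was at -0.82 in CD8+ and -0.78 in DN T cells, and 0.145% of IR DN cells had at least 3 mitosis UMIs. After thinning, mitosis was at -0.42 in CD4+ and -1.20 in CD8+ and replication at -0.45 in CD8+ T cells. TMM scaling gave replication -0.28 in CD8+ and -0.16 in DN T cells.

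Counts of members past 2-fold depended on the minimum level and on the top barcodes. Members at the minimum numbered 24, but 36 with the top 5% kept or with no cell filters, 18 with the removed features kept, 23 after thinning, 10 at 20 CPM, and 40 with no minimum (38 with a ratio for IR DN over IR CD4+ or CD8+). For IR over control the members past 2-fold, all lower, were 20 (CD4+) and 24 (DN) with the top 5% kept (13.7 and 10.7% of all features lower). With no cell filters they were 21 and 24 (13.7 and 11.0%). With no minimum they were 17, 22 and 20 of 40 in CD4+, CD8+ and DN T cells (15.2, 16.4 and 11.4%). At 20 CPM they were 2 of 10 in each subset (14.8, 17.1 and 11.1%). With the removed features kept they were 8, 14 and 7 of 18 (29.2, 38.0 and 17.6%). Centring by intronic length gave 9 of 24 in each subset (5.28, 5.93 and 4.40%). For control CD8+ over CD4+ they were 1 with the top 5% kept, 1 with no cell filters and 5 after thinning, all higher (1.86, 1.87 and 2.28% of all features). For control DN over CD4+ they were 0 with the top 5% kept, 0 with no cell filters, 6 after thinning, 4 with no minimum and 0 at 20 CPM, all lower (2.35% of features after thinning and 8.76% with no minimum), and for control DN over CD8+ 14 after thinning, 19 with no minimum and 2 at 20 CPM (3.80, 10.3 and 2.25% lower). For IR CD8+ over CD4+ they were 6 with the top 5% kept, 4 with no cell filters, 2 with barcodes lacking T cell receptor UMIs, 2 with no minimum and 0 at 20 CPM, all higher (3.40, 3.37, 3.94, 11.3 and 1.73% of features). For IR DN over CD4+ they were 2 with the removed features kept, 16, 16 and 5 with the same 3 sets of barcodes, 14 with no minimum and 3 at 20 CPM (1.79, 2.87, 2.89, 2.32, 6.01 and 1.93% lower), and for IR DN over CD8+ they were 4, then 24 and 22 with the top 5% kept and no cell filters, 17 with no minimum and 3 at 20 CPM (2.13, 4.21, 4.13, 9.47 and 2.82% lower).

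Shares of cells, as percent of control CD4+, CD8+ and DN and then IR CD4+, CD8+ and DN T cells, moved with each threshold by its construction. For mitosis they were 1.47, 2.44, 1.10, 0.339, 0.763 and 0.143 with the top 5% kept, 1.4997, 3.52, 0.956, 0.795, 0.762 and 0.227 for at least 2 UMIs, and 0.489, 0.678, 0.259, 0.0497, 0.143 and 0 for at least 5. For replication they were 1.53, 2.35, 1.03, 0.472, 0.763 and 0.310 with the top 5% kept, 3.48, 5.03, 2.87, 2.58, 2.97 and 2.17 for at least 2 UMIs, and 0.2499, 0.280, 0.0675, 0.0199, 0.0317 and 0 for at least 5. Thinned to 1000 UMIs, mitosis was at 1.28, 2.32, 0.860, 0.502, 0.975 and 0.0478 and replication at 2.14, 3.67, 1.73, 1.77, 2.02 and 1.29, with 189, 1189 and 57 shallower control and 1291, 3634 and 1875 shallower IR cells left out. Without thinning mitosis was at 10.2, 12.5, 7.20, 1.13, 0.666 and 0.101 and replication at 41.3, 41.1, 50.6, 5.28, 2.17 and 2.19. Tigit, at a log2 ratio of 1.10 in the class over the rest of control DN T cells, was at -0.30 with the top 5% kept. Leaving out barcodes found in several libraries moved none of the 27 summed ratios, counts and shares.

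Depth limits the IR libraries most: 3 UMIs amount to 0.194, 0.466 and 0.692 CPM there, against 0.0493 to 0.0659 CPM in control libraries, and IR DN ratios of single mitosis genes rest on 0 to 113 UMIs. No paired analysis was possible because each group had 1 library. The study's methods name default settings of the 10x Genomics software, and the intron and strand options of the counting are not spelled out in the sources used here.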

Other observations

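In the 8 class cells of the IR DN library the endothelial markers Pecam1, Kdr, Egfl7 and Emcn summed to 1749 CPM from 15 UMIs, against 46.2 CPM in the rest of the library. Erythroid markers, at 1.87 to 2.07 CPM in the control libraries, were at 28.2, 20.8 and 20.5 CPM in IR CD4+, CD8+ and DN T cells, and at 1366 and 2567 CPM in the removed top 5% of barcodes of IR CD4+ and CD8+ T cells. Over all analysed cells, 8 myeloid markers summed to 18.6, 11.0 and 5.18 CPM in CD4+, CD8+ and DN T cells of the control group and 46.5, 19.6 and 16.4 CPM in the IR group, and 6 B cell markers to 3.39, 14.4 and 3.59 against 13.9, 41.9 and 36.7 CPM. The 4 NK cell markers summed to 15.8, 198 and 90.1 CPM in control and 58.4, 243 and 102 CPM in IR libraries, and their part in the values of the members was not tested.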
